A study of Bos taurus with 6 samples.

Results

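The kinesin, dynein and dynactin genes encode the motors that move cargo along microtubules. Their probes on the EMBV3 bovine oligonucleotide array were chosen by gene symbol in the platform annotation, taking symbols that begin with KIF and a digit or C, KLC and a digit, DYNC, DYNL or DCTN. The rule took 72 of 43794 probes, which carry 52 of the 15229 symbols on the array, and used no measured value. Of these, 63 probes of 46 genes were bright enough to be tested, among 32527 probes and 12314 genes tested on the whole array.

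Kinesins mostly walk toward the plus ends of microtubules, cytoplasmic dynein walks toward the minus ends, and dynactin is the multi-subunit partner that dynein needs to carry most of its cargo. In an oocyte these motors position organelles and RNA during growth, and at the resumption of meiosis several of them build, focus and move the spindle. A growing oocyte stores many messenger RNAs for later translation, so the level of a transcript is not a measure of the motor protein.

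The series compared oocytes of 3 Holstein cows, labelled as in the second parity, in 2 conditions. Under antagonist, each cow received follicle-stimulating hormone (FSH) every 12 h for 3 days, then no FSH for 68 h (coasting), with the gonadotropin-releasing hormone (GnRH) antagonist cetrotide given through the coasting period. Under control, the same cow received the same FSH and the same 68 h of coasting without the antagonist, and at least 1 month separated its 2 collections. A GnRH antagonist blocks the pituitary GnRH receptor and so lowers the secretion of luteinizing hormone. Oocytes were collected by ovum pick-up and stripped of their cumulus cells, and their RNA was amplified to antisense RNA, labelled and hybridised as an antagonist and control pair of 1 cow. Each pair was hybridised on 2 arrays with the dyes exchanged, which gave 6 arrays for 3 cows. All values below are log2 ratios of antagonist over control unless they are called intensities, each cow's 2 arrays were averaged, and n is 3 cows.

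On these arrays 55.8% to 77.5% of the probes exceeded the negative control spots of their channel. The 46 tested genes had a mean log2 intensity of 10.07, against 9.07 over all 12314 genes, and 39 of them lay above background in all 12 readings. None of their 63 tested probes passed the brightness filter through 1 condition only. The 6 genes not tested were KIF1A, KIF2B, KIF5A, KIF17, KLC3 and KLC4, each with at most 1 of 12 readings above background. KIF1A, KIF5A and KIF17 are best known as neuronal cargo motors and KLC3 from the male germ line. None of the 72 probes carried the symbols of the dynein heavy chains, DYNC1H1 and DYNC2H1, or those of DYNC1LI2 and KIF1B. These genes were therefore not analysed here. Since pools of oocytes were measured, a transcript present in fewer of the oocytes and less of it in each oocyte cannot be told apart.

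No gene of the family passed an adjusted p under 0.05 for antagonist against control, as no probe on the array did (limma, Benjamini-Hochberg over 32527 probes, lowest adjusted p in the family by brightest probe 0.29). At an unadjusted p under 0.05, 7 of the 46 genes (15.2%) were picked out, against 15.1% of all genes, so the share in the family was that of the array. Of these 7, DYNC1LI1, KIF3B, KLC2, DCTN3, KIF24 and KIF1C had positive ratios and KIF2A a negative one. The 6 with positive ratios were 13% of the family, against 8.57% of all genes, and the 1 with a negative ratio was 2.17%, against 6.57%. The median ratio of the 46 genes was 0.03, against 0.0044 over all genes, with 27 genes above 0 and 19 below; on the 3 arrays with antagonist in Cy5 it was -0.02. Antagonist and control intensities of the 3 cows did not overlap for 8 of the 46 genes (17.4%), against 13% of all genes. These were DYNC1LI1, KIF3B, DCTN3, KIF13A, KIF20A, KIF24, KIF22 and KIF1C, all with antagonist above control. KIF20A, KIF1C and KIF13A rested mainly on 1 dye orientation, as given below. KIF3B, KIF22 and KIF24 also had lower ratios with antagonist in Cy5 (limma dye term, adjusted p under 0.05). The overlap count sets aside the pairing and compares cows on arrays that were not normalised to each other. KLC4, at background level, read 7.09, 7.32 and 6.9 in control oocytes of cows 1, 2 and 3.

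**Figure D1:**
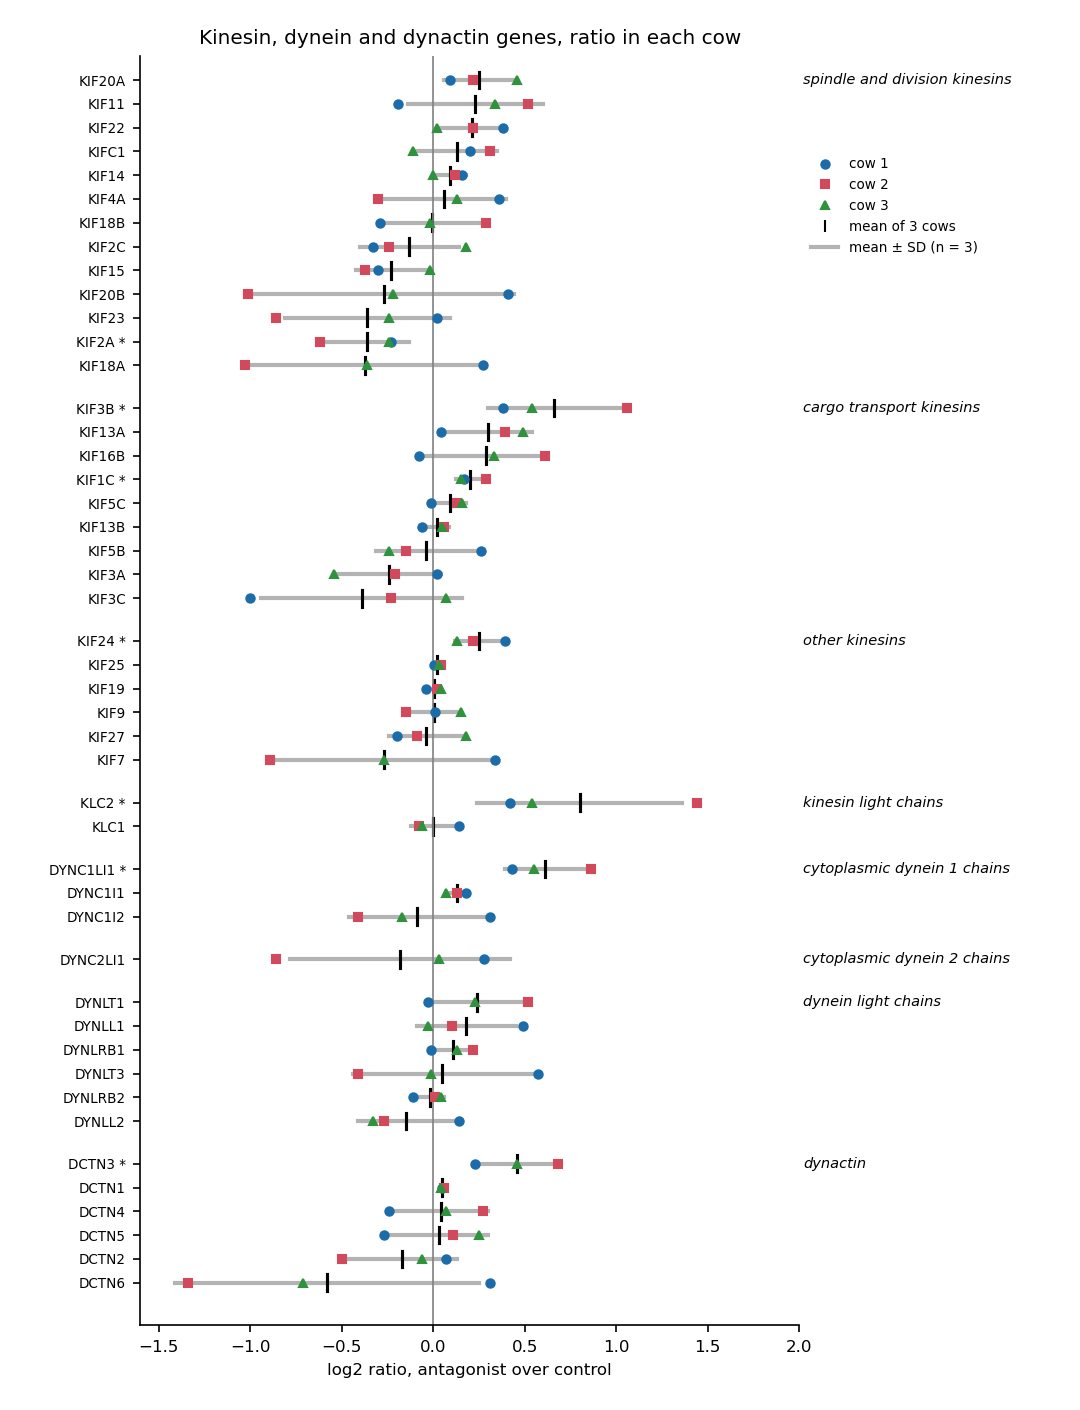
The horizontal axis is the log2 ratio of antagonist over control for the brightest probe of each of the 46 genes, grouped by role. Circles, squares and triangles are cows 1, 2 and 3, the black tick is their mean, the grey bar is the mean ± SD (n = 3), and an asterisk marks an unadjusted p under 0.05. Most grey bars cross 0, and cow 2's squares often lie farthest out, at -1.34 for DCTN6 and at 1.44 for KLC2.

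Cytoplasmic dynein 1 is the main minus-end motor, and 3 of its chains were tested, DYNC1LI1, DYNC1I1 and DYNC1I2. DYNC1LI1, the light intermediate chain 1 that links the motor to its cargo adaptors, had log2 intensities of 13.84, 14.24 and 14.03 in antagonist oocytes of cows 1, 2 and 3, against 13.40, 13.38 and 13.48 in control oocytes of the same cows. All 3 antagonist values lay above all 3 control values. The ratios were 0.43, 0.86 and 0.55, with a mean of 0.61 ± 0.22 (SD), or 1.53-fold, and were positive on 6 of 6 arrays. The unadjusted p of 0.0058 was the smallest among the 46 genes, and the limma adjusted p was 0.29.

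DYNC1I1 and DYNC1I2 encode the intermediate chains, the scaffolds to which dynactin binds. DYNC1I1 had ratios of 0.18, 0.13 and 0.07, small and positive in every cow, with a limma unadjusted p of 0.055. DYNC1I2 had ratios of 0.31, -0.41 and -0.17, so that cow 1 stood on the other side of 0 from cows 2 and 3. DYNC2LI1, the light intermediate chain of the dynein 2 motor of cilia, showed a wider spread still. Its intensities were 10.97, 10.47 and 10.19 in antagonist oocytes, against 10.69, 11.33 and 10.16 in control oocytes. Only in cow 2 did the control stand clearly above the antagonist, and the ratios of 0.28, -0.86 and 0.03 gave a mean of -0.18 ± 0.60 (SD).

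The 6 dynein light chain genes had a median ratio of 0.08, none of them had an unadjusted p under 0.05, and none had the same sign in all 3 cows. DYNLT1 and DYNLL1 had the highest means, 0.24 ± 0.28 and 0.18 ± 0.27 (SD). All 6 genes had a dye effect (limma dye term, adjusted p under 0.05). DYNLT1, a Tctex-type chain, took its mean from cows 2 and 3 (0.52 and 0.23, against -0.03 in cow 1). It had ratios of -0.24, 0.23 and -0.03 with antagonist in Cy5, against 0.17, 0.82 and 0.5 with control in Cy5. DYNLL1, an LC8-type chain that also serves as a binding hub outside dynein, took its mean from cow 1 (0.49, against 0.10 and -0.03 in cows 2 and 3). DYNLT3, the other Tctex-type chain tested, had ratios of 0.57, -0.41 and -0.01. DYNLL2, whose protein is nearly identical to that of DYNLL1, had ratios of 0.14, -0.27 and -0.33. The roadblock-type chains DYNLRB1 and DYNLRB2 lay closer to 0, with means of 0.11 ± 0.12 and -0.02 ± 0.08 (SD). Whether probes of such similar paralogs also bind each other's transcripts was not tested.

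All 6 dynactin genes on the array were tested, with a median ratio of 0.03, whose sign turned in 4 of 18 alternatives, and 1 gene at an unadjusted p under 0.05. That gene was DCTN3, which encodes the p24 subunit of the dynactin shoulder. Its intensities were 10.11, 10.04 and 10.13 in antagonist oocytes, against 9.89, 9.36 and 9.67 in control oocytes. The antagonist values lay above all control values and were closer together than these. Intensities were not normalised between arrays, so the variation between cows cannot be assigned to 1 condition. The ratios were 0.23, 0.68 and 0.46, with a mean of 0.46 ± 0.23 (SD), or 1.37-fold, positive on 6 of 6 arrays (limma unadjusted p = 0.016, adjusted p = 0.31).

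The other dynactin subunits had no common direction. DCTN2, the dynamitin subunit of the same shoulder, had ratios of 0.07, -0.50 and -0.06. DCTN1, the p150Glued arm that holds dynein and microtubules, had ratios of 0.05, 0.06 and 0.04 on a dim probe with 5 of 6 antagonist and 3 of 6 control readings above background. DCTN4, DCTN5 and DCTN6 belong to the complex at the pointed end of the actin-like filament. DCTN6 had the lowest mean ratio and the largest SD over cows of the 46 genes. Its intensities were 10.95, 11.33 and 11.18 in antagonist oocytes, against 10.64, 12.67 and 11.88 in control oocytes. The antagonist values lay within a narrow range, whereas control oocytes of cow 2 were far brighter than those of cow 1. These levels come from arrays that were not normalised to each other. The ratios were 0.31, -1.34 and -0.71, with a mean of -0.58 ± 0.83 (SD), and the limma unadjusted p was 0.20. DCTN4 and DCTN5 had the opposite order, with -0.24 and -0.27 in cow 1 and positive values in the other cows, and means of 0.04 ± 0.26 and 0.03 ± 0.27 (SD). For DCTN5 this order is that of its brightest probe, and its dimmer probes differed, as given below.

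**Figure D2:**
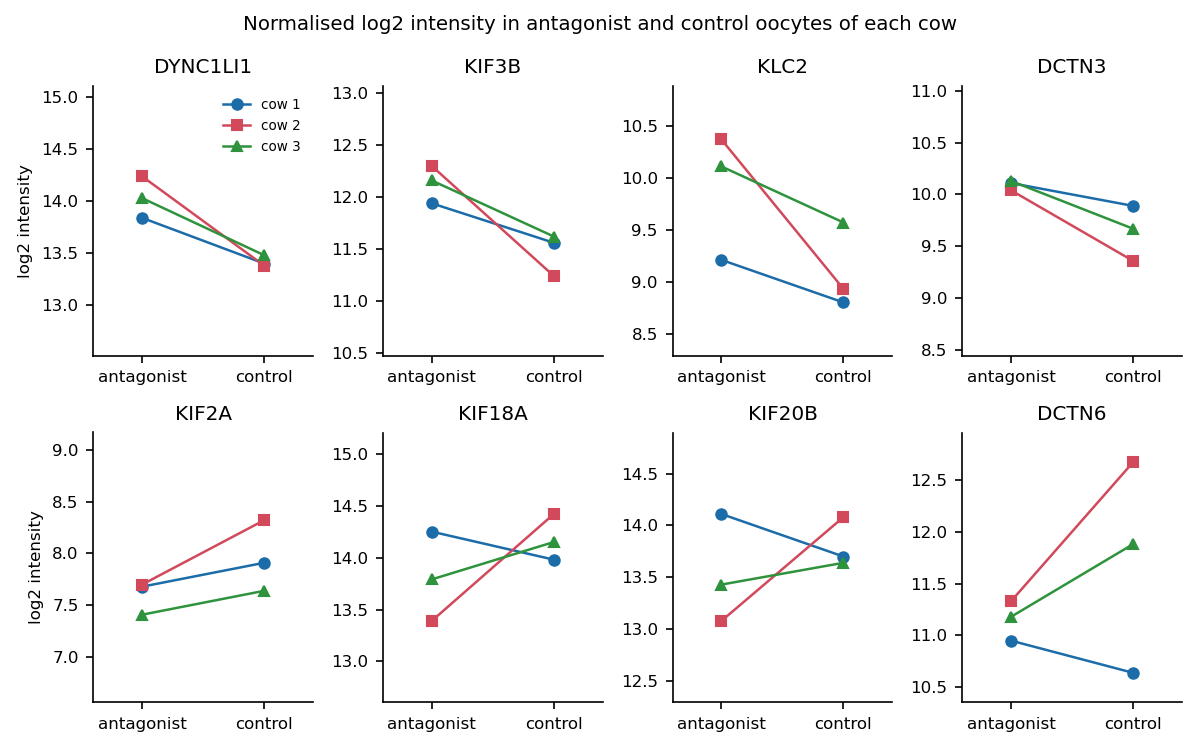
The vertical axis of each panel is the normalised log2 intensity of the gene's brightest probe, in antagonist oocytes at the left and control oocytes at the right, with a line for each cow. The 8 panels have the same height in log2 units but different starting points. For DYNC1LI1, KIF3B, KLC2 and DCTN3 every line is higher at antagonist, for KIF2A every line is lower there, and for KIF18A, KIF20B and DCTN6 the line of cow 1 runs against those of cows 2 and 3.

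Of 12 kinesins of cargo transport on the array, 9 were tested, with a median ratio of 0.09. KIF3B and KIF1C were the 2 at an unadjusted p under 0.05. KIF3B pairs with KIF3A in the heterotrimeric kinesin-2 motor that carries material into cilia and along cytoplasmic microtubules. KIF3B intensities were 11.94, 12.30 and 12.16 in antagonist oocytes, against 11.56, 11.24 and 11.62 in control oocytes. Antagonist values lay above control values without overlap, and the gap was widest in cow 2. The ratios were 0.38, 1.06 and 0.54, with a mean of 0.66 ± 0.36 (SD), or 1.58-fold, positive on 6 of 6 arrays (limma unadjusted p = 0.018, adjusted p = 0.32).

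The partner subunit KIF3A had ratios of 0.02, -0.21 and -0.54, with a mean of -0.24 ± 0.28 (SD). KIF3C, an alternative partner of KIF3A, had ratios of -1.0, -0.23 and 0.07, and cow 1 alone stood far from 0. KIFAP3, the third subunit of this motor and named here after its values were seen, had ratios of -0.16, -0.53 and -0.07. Among these kinesin-2 genes only KIF3B had a positive mean on its brightest probe.

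KIF1C, a kinesin-3 motor of Golgi and endosome traffic, had ratios of 0.17, 0.29 and 0.15 and a mean of 0.20 ± 0.074 (SD), or 1.15-fold (limma unadjusted p = 0.020, adjusted p = 0.32). This small value came from arrays of 1 dye orientation. With antagonist in Cy5 the ratios were 0.32, 0.53 and 0.35, and with control in Cy5 they were 0.01, 0.04 and -0.05. KIF13A and KIF16B, kinesin-3 motors of endosomes, had means of 0.30 ± 0.24 and 0.29 ± 0.34 (SD). KIF13A had ratios of -0.12, 0.03 and 0.26 with antagonist in Cy5, against 0.2, 0.74 and 0.71 with control in Cy5. The conventional kinesin heavy chains KIF5B and KIF5C had means of -0.04 ± 0.27 and 0.09 ± 0.091 (SD).

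Kinesin light chains bind cargo to the conventional kinesin heavy chains, and KLC1 and KLC2 were tested. KLC2 had the highest mean ratio among the 46 genes. Its intensities were 9.21, 10.37 and 10.11 in antagonist oocytes, against 8.80, 8.93 and 9.57 in control oocytes. Antagonist was brighter in each cow, but the antagonist value of cow 1 lay below the control value of cow 3, so the conditions overlapped. The ratios were 0.42, 1.44 and 0.54, with a mean of 0.80 ± 0.56 (SD), or 1.74-fold, positive on 6 of 6 arrays (limma unadjusted p = 0.037, adjusted p = 0.37). KLC1 had ratios of 0.14, -0.08 and -0.06, near 0 in every cow. KLC2, KIF3B and DYNC1LI1 were the 3 genes with both an unadjusted p under 0.05 and 1.5-fold higher intensity, 6.52% of the family against 2.76% of all genes. No gene was below control by that rule, against 0.601% of all genes. The count of 3 fell to KLC2 alone with the mean over a gene's probes, where KIF3B had 0.16 and DYNC1LI1 0.51, and with median centring in place of loess, where they had 0.54 and 0.49. The share of all genes was 2.39% with the mean over probes and 2.53% with median centring. Without cow 2 the count was 0, against 1.66% of all genes, and without cow 3 it was 1, DYNC1LI1, against 1.45%.

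**Figure D3:**
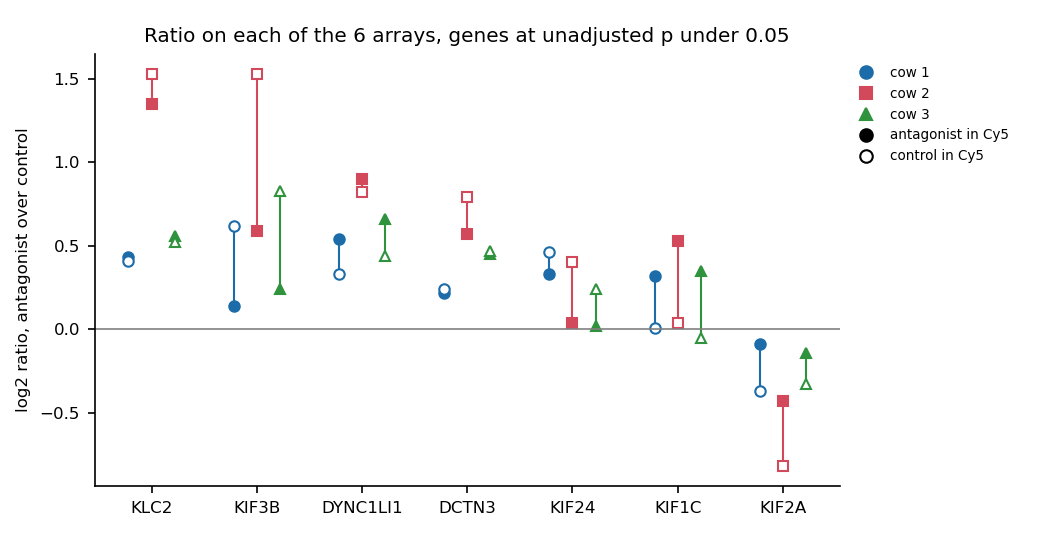
The vertical axis is the log2 ratio of antagonist over control on each of the 6 arrays, for the 7 genes at an unadjusted p under 0.05. Filled symbols are arrays with antagonist in Cy5, open symbols arrays with control in Cy5, and a line joins both arrays of a cow. For KLC2 and DCTN3 the 2 arrays of a cow lie close together, for KIF3B they lie far apart but above 0, and for KIF1C the open symbols lie near 0.

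The kinesins of the spindle and of cell division numbered 14 on the array and 13 tested, with a median ratio of -0.0043, whose sign turned in 5 of 18 alternatives. KIF2A, a kinesin-13 that shortens microtubules at their ends, was the only 1 of them at an unadjusted p under 0.05. Its intensities were 7.68, 7.70 and 7.41 in antagonist oocytes, against 7.91, 8.32 and 7.64 in control oocytes. Antagonist was dimmer in each cow, though the range of the conditions overlapped, and the probe was among the dimmer ones of the family. The ratios were -0.23, -0.62 and -0.24, with a mean of -0.36 ± 0.23 (SD), negative on 6 of 6 arrays (limma unadjusted p = 0.031, adjusted p = 0.35). KIF2C, the kinesin-13 of centromeres also called MCAK, had ratios of -0.33, -0.24 and 0.18.

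Spindle kinesins that push poles apart or bundle microtubules went different ways. KIF11, the Eg5 motor that separates spindle poles, had ratios of -0.19, 0.52 and 0.34, with a mean of 0.23 ± 0.37 (SD). KIF15, which works beside KIF11 on the spindle, had ratios of -0.30, -0.37 and -0.02. KIFC1, a minus-end kinesin that focuses poles, had ratios of 0.20, 0.31 and -0.11. The chromokinesins KIF22 and KIF4A, which act on chromosome arms, had means of 0.21 ± 0.18 and 0.06 ± 0.34 (SD). KIF22 was positive in every cow, at 0.38, 0.22 and 0.02, and KIF4A was not.

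KIF18A, KIF20B and KIF23 had the largest SDs over cows in the spindle group. KIF18A, which dampens chromosome movements at the spindle equator, had intensities of 14.25, 13.39 and 13.79 in antagonist oocytes, against 13.98, 14.42 and 14.15 in control oocytes. Cow 1 was brighter under antagonist, and cows 2 and 3 were dimmer. The ratios were 0.27, -1.03 and -0.36, with a mean of -0.37 ± 0.65 (SD). KIF20B, a motor of late division, had ratios of 0.41, -1.01 and -0.22. KIF23, which bundles the midzone for cytokinesis, had ratios of 0.02, -0.86 and -0.24. KIF20A, another motor of cytokinesis, had ratios of 0.09, 0.22 and 0.46 and a mean of 0.25 ± 0.19 (SD), with a limma unadjusted p of 0.053. Its direction turned with the dye orientation. With antagonist in Cy5 the ratios were -0.23, -0.27 and 0.06, a mean of -0.15, and with control in Cy5 they were 0.41, 0.71 and 0.85, a mean of 0.66.

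KIF14 and KIF18B completed the spindle group, with means of 0.09 ± 0.088 and -0.0043 ± 0.29 (SD). KIF18B had the largest dye effect among the 46 genes. Its ratios were -0.94, -0.33 and -0.73 on arrays with antagonist in Cy5 and 0.37, 0.91 and 0.69 on those with control in Cy5, which cancelled in the means of a cow. Across the family a dye effect was found for 33 of 46 genes (71.7%), against 64.6% of all genes (limma adjusted p under 0.05). The 3 arrays with antagonist in Cy5 and 1 of the others lay on 1 slide, by a number in the scanner output, so dye and slide were confounded in part.

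The remaining kinesins were mostly dim and close to 0. KIF24, a kinesin of centrioles and cilia, had intensities of 8.0, 7.96 and 7.77 in antagonist oocytes, against 7.60, 7.74 and 7.64 in control oocytes. The conditions did not overlap, but the gap between them was narrow and the arrays were not normalised to each other. The ratios of 0.39, 0.22 and 0.13 gave a mean of 0.25 ± 0.13 (SD), or 1.19-fold (limma unadjusted p = 0.028, adjusted p = 0.34). KIF7, a kinesin of Hedgehog signalling in cilia, had ratios of 0.34, -0.89 and -0.27, the order over cows seen in KIF18A and DCTN6. KIF9, KIF19, KIF25 and KIF27 had means between -0.04 and 0.02. KIF13B of the cargo group had a mean of 0.02 ± 0.066 (SD).

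The cows differed from each other for 36 of the 46 genes (78.3%), against 54.5% of all genes (limma F-test, adjusted p under 0.05). Among genes above background in all 12 readings these were 33 of 39 in the family and 6067 of 8672 on the array. This test takes its error from the 2 arrays of 1 RNA pair, which is technical. The median SD over cows was 0.26 in the family and 0.14 over all genes, and the family's probes were also brighter on average, as given above. Among genes above background in all 12 readings it was 0.27 in the family and 0.20 on the array. The cows carried different weights, since the ratios of the 46 genes had an SD of 0.55 for cow 2, against 0.29 for cow 1 and 0.27 for cow 3. The largest ratio in size was that of cow 2 for 26 genes (56.5%, against 51.6% of all genes), of cow 1 for 15 and of cow 3 for 5.

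The ratios of cows 2 and 3 went together over the 46 genes, and those of cow 1 did not follow them. Across genes, which share arrays and are not independent, Pearson's r was 0.80 between cows 2 and 3, as it was over all genes. It was 0.00025 between cows 1 and 2 and -0.06 between cows 1 and 3, against 0.21 and 0.29 over all genes. These values hold for the brightest probe of each gene. Over the family's 63 tested probes r was 0.19 in both pairs, against 0.19 and 0.28 over all 32527 probes. A positive ratio in cow 1 with negative ones in cows 2 and 3 was found for 12 genes (26.1%, against 15.6% of all genes). These were KIF3A, KIF5B, KIF7, KIF18A, KIF20B, KIF23, KLC1, DYNC1I2, DYNLL2, DYNLT3, DCTN2 and DCTN6. The reverse order was found for 10 genes (21.7%, against 16.8%), among them KIF11, KIF16B, DYNLT1, DCTN4 and DCTN5. The same sign in all 3 cows was found for 14 genes (30.4%, against 37.7% of all genes), 12 positive and 2 negative. On all 6 arrays it was found for 6 genes (13%, against 14.8%), the 5 positive ones being DYNC1LI1, KIF3B, KLC2, DCTN3 and KIF24 and the negative one KIF2A.

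**Figure D4:**
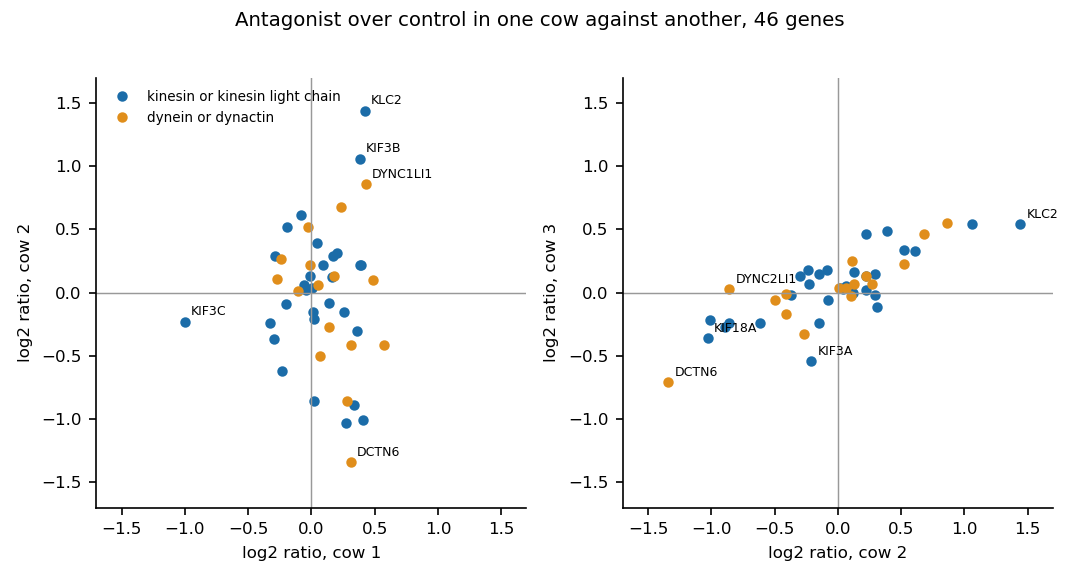
Each point is 1 of the 46 genes, with the log2 ratio of antagonist over control in cow 1 against that in cow 2 at the left, and in cow 2 against that in cow 3 at the right. Blue points are kinesins and kinesin light chains, and orange points are dynein and dynactin genes. The points scatter without order at the left (r = 0.00025) and along a rising line at the right (r = 0.80), where DCTN6 and KLC2 mark the ends.

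The number of genes called changed with the cow left out, in the family as over all genes. Without cow 1, 15 of the 46 genes (32.6%) had an unadjusted p under 0.05, against 27.7% of all genes. Without cow 2 there were 5 (10.9%, against 9.82%), and without cow 3 there were 4 (8.7%, against 5.98%). Each of these fits rests on 2 cows, so a lost call need not have leaned on the cow left out. DYNC1LI1 was the only 1 of the 7 that kept an unadjusted p under 0.05 without each cow in turn, with means between 0.49 and 0.70. KIF1C and KIF24 lost it without any 1 cow, and DCTN3, KIF3B, KLC2 and KIF2A lost it without cow 3, where limma's fit rests on cows 1 and 2. The means of these 4 stayed between 0.34 and 0.57 for DCTN3, 0.46 and 0.80 for KIF3B, 0.48 and 0.99 for KLC2, and -0.43 and -0.23 for KIF2A.

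For 10 genes more than 1 probe was tested, and the probes often differed. All probes of a gene had the same sign in 4 of the 10 genes, against 55.4% of 3004 such genes on the array, and the median spread between a gene's probes was 0.32, against 0.18. DYNC1LI1 had 4 tested probes. Its probe of next lower intensity had intensities of 12.33, 12.65 and 12.41 in antagonist oocytes, against 11.34, 10.99 and 11.25 in control oocytes. Here too the conditions did not overlap, and the separation was wider than on the brightest probe. The ratios were 0.99, 1.66 and 1.16, with a mean of 1.27 ± 0.35 (SD), or 2.41-fold, the highest of the 63 probes (limma unadjusted p = 0.0020, adjusted p = 0.28). The dimmest DYNC1LI1 probe had 0.37 ± 0.21 (SD), and the remaining one had -0.21 ± 0.25 (SD), with 0.08, -0.40 and -0.30 in the cows. The 4 probes of this gene thus did not share a sign.

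KIF3B's dimmer probes had means of -0.14 ± 0.20 and -0.02 ± 0.051 (SD), unlike the 0.66 of its brightest. DCTN3's had 0.29 ± 0.23 and -0.02 ± 0.012 (SD). DCTN5's had 0.35 ± 0.24, -0.14 ± 0.14 and -0.05 ± 0.076 (SD), beside 0.03 on its brightest. The DCTN5 probe at 0.35 had ratios of 0.19, 0.23 and 0.62, positive on 6 of 6 arrays (limma unadjusted p = 0.041, adjusted p = 0.38). DYNLL2's dimmer probe had ratios of 0.13, 0.87 and 0.42, positive on 6 of 6 arrays, while the probe that stands for the gene had a negative mean. The 3 KIF3A probes all had negative means, -0.24, -0.29 and -0.15. The 2 DYNC2LI1 probes had means of -0.18 and -0.19, and both DYNLRB1 probes had positive means, 0.11 and 0.27. The transcripts or gene ends that the probes of a gene match were not examined here.

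**Figure D5:**
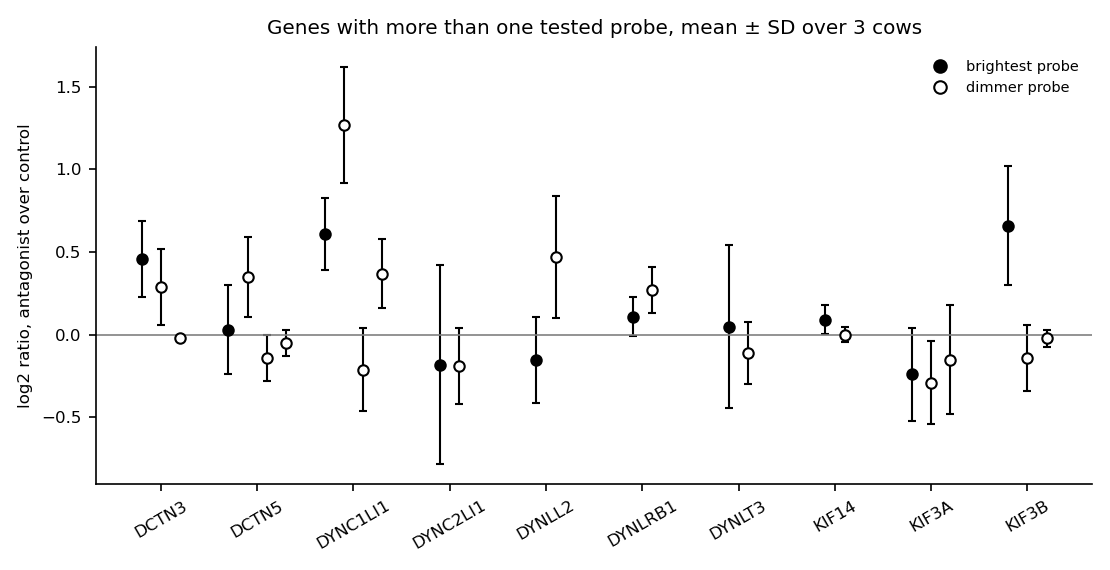
The vertical axis is the mean log2 ratio of antagonist over control ± SD over 3 cows for every tested probe of the 10 genes with more than 1 tested probe. The filled symbol is the brightest probe, which stands for the gene, and open symbols are dimmer probes. DYNC1LI1 spans 1.27 to -0.21, KIF3B spans 0.66 to -0.14, and the 3 KIF3A probes lie together below 0.

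Genes that work with these motors were read out from the same fit. Of 29 adaptors and regulators on the array 26 were tested, with a median ratio of -0.07, and 2 had positive and 1 a negative ratio at an unadjusted p under 0.05. ACTR1A, the actin-related protein that forms the dynactin filament, had ratios of 0.23, 0.45 and 0.41, with a mean of 0.36 ± 0.11 (SD), positive on 6 of 6 arrays (limma unadjusted p = 0.0062, adjusted p = 0.29). MAPK8IP1, a scaffold that links kinesin to cargo, had a mean of 0.42 ± 0.29 (SD), and TRAK1, the adaptor of mitochondria, had a mean of -0.25 ± 0.11 (SD).

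Of 28 microtubule-associated and plus-end genes 27 were tested, with a median of -0.02 and again 2 positive and 1 negative at that threshold. HAUS7, a subunit of the augmin complex that branches spindle microtubules, had ratios of 0.21, 0.38 and 0.21. CLASP2, which stabilises plus ends, had a mean of 0.16 ± 0.058 (SD), and CKAP5, a microtubule polymerase, had -0.19 ± 0.11 (SD). Of 10 axonemal dynein genes, whose motors beat cilia, 6 were tested with 1 at that threshold, DNAH11, at 0.26 ± 0.063 (SD) on a dim probe.

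The label oocyte was checked against marker genes. All 14 oocyte markers were tested, with a median ratio of 0.19, medians by cow of 0.15, 0.25 and 0.10, and 3 positive and 1 negative at an unadjusted p under 0.05. The log2 of their summed intensity lay between 17.17 and 17.27 in antagonist oocytes and between 17.12 and 17.18 in control oocytes. Of 16 granulosa and cumulus markers 11 were tested, none at an unadjusted p under 0.05, with a median ratio of 0.01. The log2 of their summed intensity lay between 14.12 and 15.10 in antagonist oocytes and between 14.26 and 15.02 in control oocytes. This sum is mostly that of STAR, with a mean log2 intensity of 14.33, against 11.39 for NR5A2, the next brightest. It therefore says little of the other markers. FOXL2, AMH, LHCGR, AMHR2 and CYP11A1 were too dim to be tested. Of the 11, 7 had positive and 4 negative means. The ends of their range, named here after their values were seen, were INHA, an inhibin subunit, with ratios of 0.20, -0.25 and 1.4, and HAS2, a hyaluronan synthase of cumulus cells, with -0.0026, -0.98 and -0.38. These 2 lay on opposite sides of 0 in cow 3 and both below 0 in cow 2. The list's median ratios by cow were -0.0026, -0.07 and 0.05. Of 11 theca and stroma markers 8 were tested, none at that threshold but all with positive means (median 0.06). The log2 of their summed intensity was 12.07 to 12.74 in antagonist oocytes and 11.90 to 12.13 in control oocytes. VIM, the vimentin gene and likewise named afterwards, had the highest mean of them, from ratios of 0.33, -0.04 and 1.52, so cow 3 stood apart in VIM as in INHA. Of 9 blood and endothelium markers 5 were tested, 1 of them with a positive ratio at that threshold. The log2 of their summed intensity was 10.24 to 10.66 in antagonist oocytes and 10.29 to 10.72 in control oocytes. The part of other cells in the motor genes' values was not tested.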

How the data were processed

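The data are 6 arrays of 2 channels, made from the oocytes of 3 cows. Per the file headers, the deposited scanner files hold raw spot intensity and local background at the Cy5 and Cy3 wavelengths. A second deposited file gives the authors' log2 ratios. Set against the scanner values it ran as antagonist over control on every array (slopes 0.95 to 1.01), with column medians of 0.0015, 0.00081 and 0.00039 for cows 1 to 3 where antagonist was in Cy5, and of 0.001, -0.0027 and 0.0018 where control was. How it was normalised is not given in the sources used here, and it served as an alternative.

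Intensities were corrected with normexp (offset 50) and normalised by loess within each array in limma 3.58.1 under R 4.3.3, with control spots at weight 0 and 105 spots marked as ignored left out. The main fit used no normalisation between arrays, so intensity levels of different cows are not on the same scale. Testing required a raw foreground more than 2 SD over the mean of the 152 negative control spots, in 3 or more of the 6 readings of at least one condition. The median raw intensity was 191 to 272 in Cy5 and 219 to 277 in Cy3, against negative control means of 154 to 222 and 170 to 214, so the signal of dim probes lies close to background. The 2 arrays of each cow were combined as their mean, and the 3 cow values were tested against 0 with lmFit and eBayes (two-sided). The pairing is by design, since per the labels both conditions came from the same animal. Differences between cows and the dye term came from a fit of the 6 arrays. A gene stands by its brightest tested probe. The fits were tested on simulated data.

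The genes named were all dynein, dynactin and light chain genes tested, those of the 8 smallest p, the 4 highest and 4 lowest means and the 4 largest SDs, a fixed set of spindle and cargo kinesins, and 3 genes of each related list; other kinesins were added after their values were seen. The members and lists were chosen with earlier results of these data known. Gene symbols are those of the platform annotation, and all 52 also occur in RefSeq. The slide of an array was read from a number in the scanner output, as no label gives it. Alternatives covered background, normalisation, the dim-probe filter, blocks, slide, dye orientation, the authors' ratios, each cow left out and the mean over a gene's probes.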

Additional observations from a re-analysis of the deposited data

How the results depend on the processing

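The number of genes of the family at an unadjusted p under 0.05, 7 as reported, was 7 to 9 under the other background corrections, normalisations, filters, the authors' deposited ratios, the mean over probes (39 to 52 genes tested), and the fit without the replicate block. It was 8 on the 3 arrays with antagonist in Cy5, where the share of all genes was 28.1%, against 15.1% as reported. It was 11 with a random replicate block for the cow over 6 arrays (22.9% of all genes), 12 with the slide as a random block (24.6%), 16 on the 4 arrays of the shared slide (28.5%) and 17 on the 3 arrays with control in Cy5 (31.9%). Leaving out 1 cow gave 4 to 15, lowest without cow 3 (5.98% of all genes) and highest without cow 1 (27.7%). At an adjusted p under 0.05, 0 probes of the array passed as reported (limma, 4143 at an unadjusted p under 0.05). That number was 848 with the replicate block, 8 with no replicate block (single channels), 1346 with the slide block, 186 where antagonist was in Cy5 and 109 where control was, and 0 under the other alternatives. The fits on 3 arrays of 1 dye orientation, here and in the counts above, held no dye term. A gene's dye effect therefore stayed in its ratio. Both block fits count the 2 arrays of a cow as samples. The cow block models their correlation, as 1 value of 0.77 for all probes. The slide block models that of arrays on a slide, 0.09, and not that of a cow's arrays. Under either block fit, DYNC1LI1 was the only one of the 46 genes to pass. Its lowest adjusted p over the alternatives was 0.027, the highest 0.95. At an unadjusted p under 0.05 all probes numbered 7645 on the shared slide, 9401 and 10223 on the arrays with antagonist and control in Cy5, 6872 with the slide block, and 7408, 2579 and 1591 without cows 1, 2 and 3. On the 3 arrays with control in Cy5, KIF1C turned to -4.9e-05 and CLASP2 to -0.16, and on the 3 with antagonist in Cy5 CKAP5 turned to 0.01; the cause was not tested. Counts of genes that differed between cows or with the dye stayed within 1.5 times. The number of genes at an unadjusted p under 0.05 and 1.5-fold higher was 3 as reported (2.76% of all genes). It was 1 with median centring (2.53% of all genes) and 1 with the mean over probes (2.39%). Under the other alternatives on all cows it was 2 to 4 (2.22% to 6.25%), and without 1 cow 0 to 3 (1.45% to 5.9%). The median ratio of the family ran between -0.02 and 0.05 and turned sign in 1 of 18 alternatives. That of dynactin ran between -0.07 and 0.11 and turned in 4: -0.07 over genes above background in all readings, -0.05 with antagonist in Cy5, -0.0038 without cow 2 and -0.03 without cow 3. That of spindle kinesins ran between -0.15 and 0.04 and turned in 5, that of the other kinesins ran between -0.04 and 0.03 and turned in 8, and that of DYNC2LI1 turned to 0.16 without cow 2. Only 22 of the 44 genes named by rule kept their sign under every alternative run. Of the 14 of them with an unadjusted p under 0.05, 11 did.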
